A study of Caenorhabditis elegans with 60 samples.

Results

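The piRNAs described here are 1056 of the 15366 Caenorhabditis elegans piRNAs listed in the gonad small RNA table. They were chosen by 2 limits on the gonad libraries: a mean below 2 over the 3 wild type libraries and a mean of at least 10 over the 3 henn-1 libraries, in normalized signal (reads of a library divided by its size factor). They are called the selected piRNAs below. Another 3259 piRNAs also reached a henn-1 gonad mean of 10 but had a wild type mean of 2 or more, and they serve as the comparison piRNAs. The working name of the set, piRNAs seen only in henn-1 gonads, did not hold for the read counts. Of the 1056, 959 had at least 1 read in a wild type gonad library and 97 had none. No selected piRNA had more than 8 wild type gonad reads in all, and the median was 3.

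piRNAs of C. elegans (21U-RNAs) are germline small RNAs of 21 nt. Most are made from short separate transcription units on chromosome IV, are trimmed at the 3′ end by the nuclease PARN-1 and are bound by the Argonaute PRG-1, which uses them to recognise foreign and self transcripts and to start the production of secondary 22G-RNAs. HENN-1, the worm member of the HEN1 family, adds a methyl group to the 2′ oxygen of their last nucleotide. In plants and animals this group is known to protect small RNA ends from trimming and tailing, and it makes RNAs resistant to sodium periodate, which blocks the cloning of RNAs with a free 3′ end.

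The gonad samples came by dissection of gravid adults (68 to 70 h, 20 C) of henn-1(pk2295) III mutants and of the wild type N2, with 3 small RNA and 3 mRNA libraries per genotype. Whole animals of N2 and of rde-1(ne219) V, which lacks an Argonaute of exogenous RNA interference, gave 3 libraries each with sodium periodate (oxidized) and 3 without (untreated). Embryos were obtained by egg preparation at 20 C from henn-1(pk2295) III mutants and from N2, with 3 libraries each. All small RNA libraries were treated with polyphosphatase, and all animals were fed the bacterial strain OP50. The labels conflict for the oxidized libraries: 1 field names gravid adults of 68 h and another names L4 larvae, while the untreated libraries are L4 larvae of 52 h in both. Oxidation and stage can therefore not be told apart in the whole animals. Whether replicates came from separate cultures is not stated, and the p-values therefore cover only the spread among these libraries, which may be technical.

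Recovered reads over the listed features numbered 4215264 to 8745475 per gonad library, and for whole animals 6311071 to 13613629, while embryo libraries had 967644 to 3829632 counted reads. Among detected piRNAs, those with 1 to 5 reads made up 3.40% to 12.3% in the oxidized libraries of both genotypes, against 32.3% to 36.9% in the untreated libraries other than rde-1 library 2, which had 19.7%. The oxidized libraries and that library thus stood apart, and the part of this in the counts of detected piRNAs was not tested. Wild type embryo library 1 also stood apart, with 37.4% of these counted reads on piRNAs, against 12.1% and 10.0% in wild type libraries 2 and 3. In bulk libraries fewer cells of a type and less RNA per cell cannot be told apart.

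Across tissues, the selected piRNAs took a small but measurable share of all piRNA reads in every group. In gonads, whose values chose the set, the share was 2.87%, 2.74% and 2.95% in the henn-1 libraries, against 0.656%, 0.639% and 0.603% in the wild type libraries. In embryos it was 4.90%, 4.42% and 5.01% in henn-1, against 1.19%, 2.24% and 1.54% in wild type. In wild type whole animals it was 1.21%, 1.40% and 1.46% in oxidized libraries, against 3.47%, 3.71% and 3.52% in untreated libraries. The untreated wild type animals thus gave these piRNAs a larger share than any gonad library of either genotype. No 2 groups of these pairs overlapped.

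**Figure D1:**
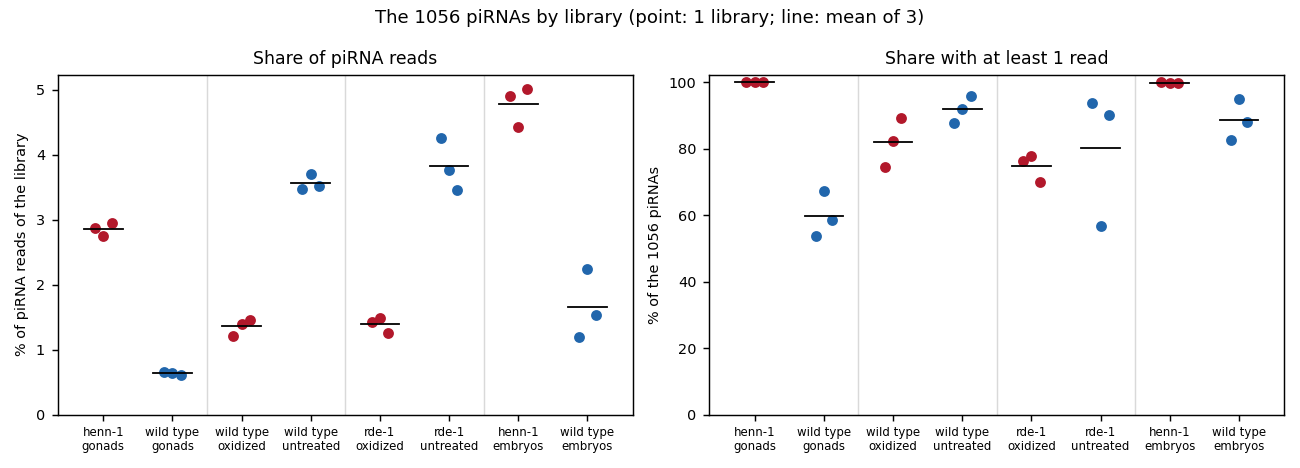
Share of each library's piRNA reads taken by the 1056 selected piRNAs (left, percent) and share of the 1056 with at least 1 read (right, percent), by group, with a point per library and a line at the mean of 3. The henn-1 embryo libraries sit highest on the left (4.42% to 5.01%) and the wild type gonad libraries lowest there (0.603% to 0.656%), and the oxidized libraries lie below the untreated ones on the left in both genotypes, while on the right rde-1 untreated library 2 lies among the wild type gonad libraries.

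In the gonads, which the choice of the set used, the selected piRNAs had henn-1 means of 10.0 to 138 normalized signal with a median of 16.6, against wild type means of 0 to 1.99 with a median of 0.904. The comparison piRNAs had medians of 73.8 in henn-1 and 9.98 in wild type gonads, so the set came from the lower part of the henn-1 range. Only 383 of the 1056 reached 20 in henn-1 gonads and 49 reached 50. In wild type gonads 3 reads were worth 3.34, 2.01 and 2.78 normalized signal in libraries 1, 2 and 3, so the limit of 2 lay below 3 reads in each library. For the 97 with no wild type gonad read, a low level cannot be told from absence at this depth. The other 959 had at most 8 reads each over the wild type gonad libraries.

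The highest member in henn-1 gonads was 21ur-2898, with 148, 118 and 149 in the henn-1 libraries, against 2.23, 2.69 and 0.928 in the wild type libraries, the last being 2, 4 and 1 reads. 21ur-6628 had 114, 103 and 113 in henn-1 gonads, against 2.23, 0.672 and 0.928 in wild type gonads. 21ur-3481 had 105, 113 and 105 in henn-1 gonads, against 1.11, 0 and 1.86 in wild type gonads. The next were 21ur-809, 21ur-5996 and 21ur-5990, with henn-1 means of 103, 102 and 97.9. In henn-1 gonads 21ur-809 varied most of these 6, with 73.8, 107 and 129, while their wild type values were 0 to 4 reads per library.

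At the wild type limit, 21ur-10941 and 21ur-12510 were just inside with a mean of 1.99 each, and 21ur-4091 and 21ur-4203 just outside with 2.01 each. At the henn-1 limit, 21ur-3318 and 21ur-7045 were just inside with 10.0001 and 10.0044, and 21ur-6340 and 21ur-6233 just outside with 9.996 and 9.995. Of the 9456 small RNA features tested in gonads with limma, 42% were called higher and 15.9% lower in henn-1. The 424 selected piRNAs that passed the filter on low values were all called higher, which the choice of the set fixed. Of 3024 comparison piRNAs tested, 2930 were also called higher and 3 lower, and their henn-1 limit favours higher calls too. All piRNAs together took 16.0% ± 0.72 of the listed reads in henn-1 gonads, against 3.30% ± 0.16 in wild type gonads (SD, n = 3 each).

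Wild type whole animals contained nearly all of the selected piRNAs. In the untreated libraries 927, 971 and 1012 of the 1056 had at least 1 read, 870 had one in all 3 libraries and 15 in none. In the oxidized libraries 786, 868 and 943 were seen, 713 of them in all 3 libraries and 59 in none. A total of 989 were seen both with and without oxidation, 8 only in oxidized libraries, 52 only in untreated libraries and 7 in neither. The comparison piRNAs were seen in all 3 libraries for 92.4% under oxidation and 98.0% without it, against 67.5% and 82.4% of the selected piRNAs.

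The 97 piRNAs with no wild type gonad read were also seen elsewhere. Of these, 86 had a read in oxidized and 93 in untreated wild type animals, 51 in all 3 oxidized libraries and 72 in all 3 untreated ones. Wild type embryos showed 91 of them. Over the whole set, 515 piRNAs were present in all 9 wild type libraries outside the gonads, and a single one, 21ur-4059, was in none of them. 21ur-4059 had 9.50, 9.63 and 12.6 in henn-1 gonads, against 1.11, 0 and 0 in wild type gonads. It had 35, 47 and 23 reads in henn-1 embryos, against 0 reads in each wild type embryo library, where a count of 0 allows up to 3 reads.

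The highest members in untreated wild type animals were not those of henn-1 gonads. The median of the selected piRNAs was 28.2 normalized signal in oxidized and 9.56 in untreated wild type animals, and the highest untreated mean was 280. The highest in untreated animals was 21ur-11613, with 3005, 2086 and 2803 in oxidized libraries, against 255, 285 and 299 in untreated ones. It had only 16.8, 14.2 and 18.2 in henn-1 gonads, against 0, 2.01 and 1.86 in wild type gonads. 21ur-7704 had 1908, 2269 and 2493 in oxidized animals, against 144, 175 and 186 in untreated animals, and its henn-1 gonad mean was 17.8. Across the 1056, the rank correlation of the henn-1 gonad mean was 0.10 with the oxidized and 0.15 with the untreated wild type mean, against 0.78 between oxidized and untreated means. The choice of the set had cut the henn-1 gonad means at 10, and their quartiles were 12.7 and 23.9. The weak values are therefore not read as a result, and the last pair shares 1 table and its scaling.

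**Figure D2:**
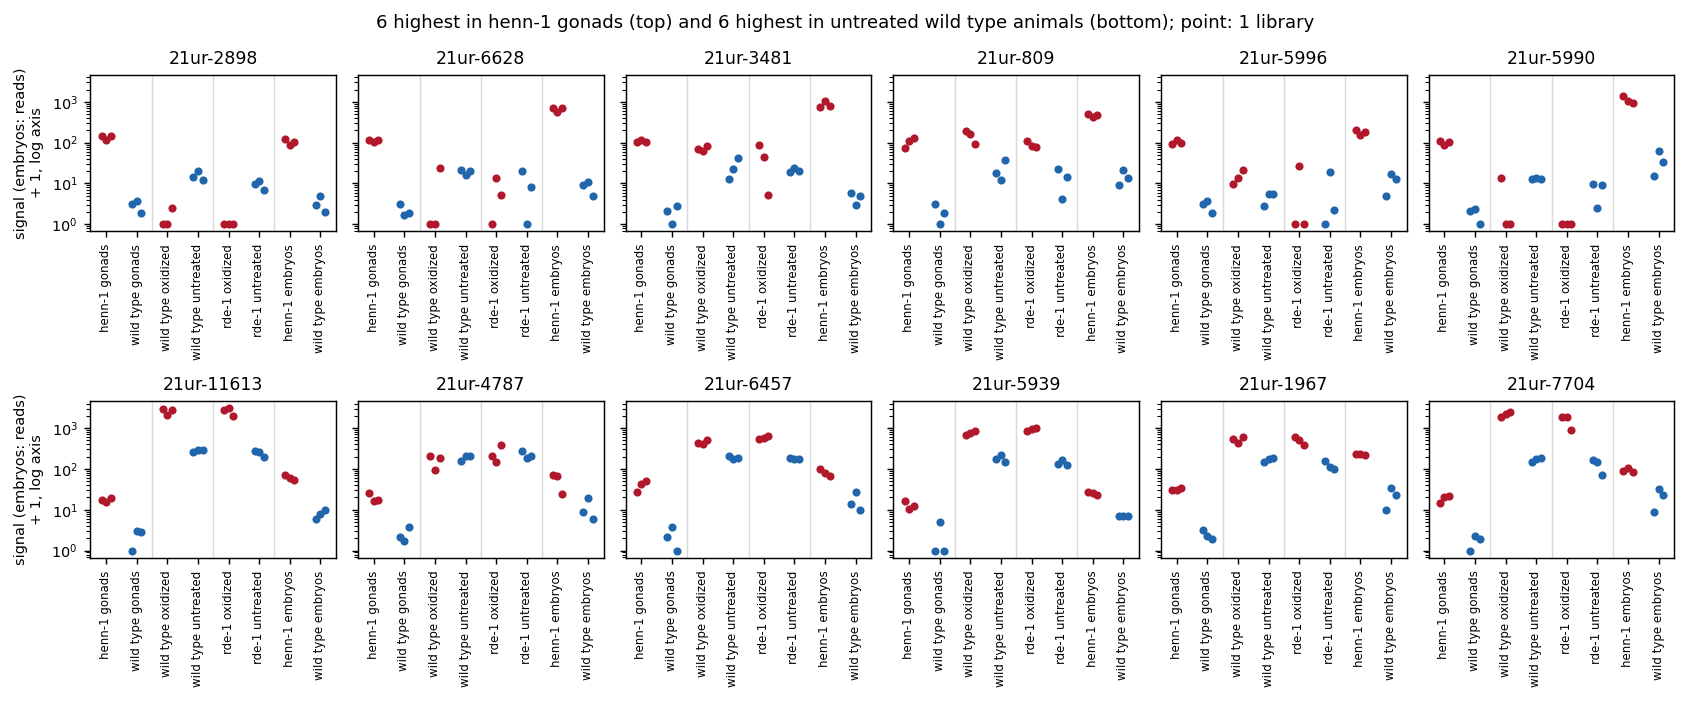
Values of 12 selected piRNAs in the 24 small RNA libraries used, as normalized signal (reads for embryos) plus 1 on a log axis, with a point per library. The 6 highest in henn-1 gonads (top row) had wild type gonad means of at most 1.95, and the 6 highest in untreated wild type animals (bottom row) had henn-1 gonad means of 12.1 to 39.5.

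Oxidation separates RNAs with a methylated 3′ end from the rest. In wild type animals the summed signal of the selected piRNAs was higher in oxidized than in untreated libraries by 2.15 on the log2 scale (16.5 ± 0.12 against 14.4 ± 0.03, SD, n = 3 each; exact permutation over libraries, two-sided, p = 0.1, and 3 against 3 cannot give less). All other piRNAs together were higher by 3.58 in the same libraries. The share of the selected piRNAs among piRNA reads was thus lower by 2.21 percentage points in oxidized libraries (1.36% ± 0.13 against 3.57% ± 0.12, SD, n = 3 each; exact permutation p = 0.1). Taken relative to all other piRNAs, the summed difference of the set turned to -1.43.

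Singly, most selected piRNAs that could be tested were called higher in oxidized libraries. The signal is relative to the library: all piRNAs together took 66.7% ± 3.46 of listed reads in oxidized and 5.89% ± 0.52 in untreated wild type libraries (SD, n = 3 each). With limma on log2 of the signal plus 1, 34.9% of the 12383 features tested were called higher in oxidized wild type animals and 42.9% lower (adjusted p under 0.05, Benjamini-Hochberg). Of the 704 selected piRNAs with a mean of at least 10, 446 were called higher and 7 lower, and the median log2 difference was 1.78, against -0.32 over all features and 2.05 over the comparison piRNAs. Among the comparison piRNAs tested, 2347 of 3069 were higher and 30 lower. The filter favours piRNAs with high oxidized values. Without it, 22.3% of 19369 features were called higher and 30.5% lower, and 432 of 1049 selected piRNAs were higher and 26 lower.

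The 4 members with the lowest adjusted p-values, a choice that favours large differences and even replicates, were 21ur-4932, 21ur-9646, 21ur-6613 and 21ur-10036. 21ur-4932 had 1897, 2732 and 2512 in oxidized animals, against 94.6, 85.8 and 80.7 in untreated animals, a log2 difference of 4.74 ± 0.17 (SE; limma, adjusted p = 1.3e-07). 21ur-9646 had 2023, 1689 and 1741 in oxidized animals, against 115, 87.7 and 87.3 in untreated animals (log2 difference 4.23 ± 0.16, adjusted p = 2.1e-07). 21ur-6613 and 21ur-10036 were higher in oxidized animals by 4.31 ± 0.18 and 4.16 ± 0.17. Of the 6 highest in untreated animals, 5 were higher in oxidized animals by 1.22 to 3.71. The exception was 21ur-4787, with 206, 95.1 and 185 in oxidized animals, against 157, 212 and 210 in untreated animals, where the groups overlapped (log2 difference -0.31 ± 0.31, adjusted p = 0.37).

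Several members that were high in henn-1 gonads were at or close to 0 in 2 or 3 oxidized libraries. 21ur-2898 had 0, 0 and 1.56 in oxidized wild type animals, against 13.5, 19.4 and 11 in untreated ones, and it was below the mean needed for a test. 21ur-5990 had 12.4, 0 and 0 in oxidized animals, against 11.7, 12.9 and 11.7 in untreated ones. 21ur-6628 had 0, 0 and 22.6 in oxidized animals, against 20.7, 14.8 and 19.1 in untreated ones (log2 difference -2.73 ± 1.24, limma adjusted p = 0.073). In contrast, 21ur-809 had 197, 161 and 90.3 in oxidized animals, against 17.1, 11.1 and 36 in untreated ones. Its log2 difference was 2.83 ± 0.50 (limma adjusted p = 0.0012), and that of 21ur-3481 was 1.66 ± 0.49 (limma adjusted p = 0.015). 21ur-5996 had 8.86, 12.4 and 20.2 in oxidized animals, against 1.80, 4.61 and 4.40 in untreated ones, and was below the mean needed for a test.

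The 7 members called lower with oxidation were named after their values were seen. They were 21ur-10743, 21ur-14476, 21ur-4420, 21ur-7009, 21ur-14096, 21ur-4210 and 21ur-6913. 21ur-14476 had 0, 13.4 and 33.5 in oxidized animals, against 72.1, 106 and 61.6 in untreated animals. 21ur-14096 had 7.09, 13.4 and 26.5 in oxidized animals, against 58.6, 33.2 and 34.5 in untreated animals. For both, every oxidized library lay below every untreated one. The number of lower calls rested on single libraries: leaving out untreated library 1, 2 or 3 left at most 1 lower call, and leaving out oxidized library 3 gave 16.

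The oxidation values were also compared at matched level. When piRNAs were divided by their mean over the 6 wild type libraries, the median log2 difference of the selected piRNAs was 0.13 between 1 and 5, 1.13 between 5 and 20, 1.82 between 20 and 100, 2.52 between 100 and 500 and 3.71 from 500 up. The comparison piRNAs had medians of -0.29, 0.64, 1.44, 2.08 and 3.16 in the same classes. Only 11 selected piRNAs, against 825 comparison piRNAs, lay in the highest class. As summed signal, the ratio of oxidized over untreated in that class was 13.4 for the selected and 15.4 for the comparison piRNAs. The piRNAs below the henn-1 limit of 10 had medians of 1.03, 1.67, 2.19, 3.17 and 4.42 in the same classes. The medians of the selected piRNAs thus lay above those of the comparison piRNAs and below those of the piRNAs under the henn-1 limit in each class, with no test. The mean that sets a class includes the oxidized values, so the increase from class to class is no result.

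**Figure D3:**
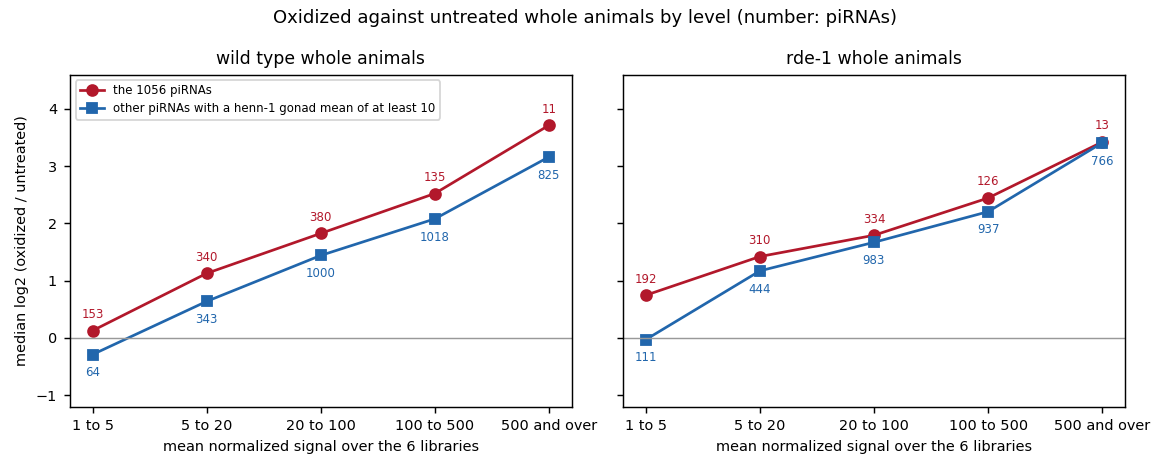
Median log2 of oxidized over untreated signal for the 1056 selected piRNAs and the 3259 comparison piRNAs, in classes of mean normalized signal over the 6 libraries of wild type (left) and rde-1 (right), with the number of piRNAs beside each point. In wild type the selected piRNAs lie above the comparison piRNAs in all 5 classes (0.13 against -0.29 in the lowest class, 3.71 against 3.16 in the highest).

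The rde-1 animals, whose table was normalized by itself, gave similar values. The selected piRNAs took 1.42%, 1.49% and 1.25% of piRNA reads in oxidized rde-1 libraries, against 4.26%, 3.76% and 3.45% in untreated ones. Their summed signal was higher by 2.20 with oxidation on the log2 scale (exact permutation p = 0.1). Limma called 31.1% of 12034 features higher and 26% lower. Of 2948 comparison piRNAs tested, 2104 (71.4%) were higher and 7 lower. Of the 637 selected piRNAs tested, 328 (51.5%) were higher and 3 lower (21ur-1694, 21ur-4210 and 21ur-174). Leaving out any single rde-1 library other than oxidized library 3 left at most 1 lower call. Without the filter on low values 18.3% of 18793 features were higher and 15.7% lower, with 285 of 1046 selected piRNAs higher and 9 lower. The oxidation difference relative to the other piRNAs was -1.43 in wild type and -1.50 in rde-1. An exact permutation of the genotype labels within each treatment gave p = 0.7 for the difference of 0.07 between them.

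21ur-2898 was at 0 in all 3 oxidized rde-1 libraries, against 8.88, 10.7 and 5.84 in the untreated ones. 21ur-5990 was also at 0 in all 3, against 8.88, 1.53 and 8.44 in the untreated ones. 21ur-4210 had 29.97, 10.5 and 33.4 in oxidized rde-1 animals, against 116, 115 and 46.1 in untreated ones. It was called lower in both genotypes, with log2 differences of -0.87 ± 0.33 in wild type (limma, adjusted p = 0.042) and -1.90 ± 0.63 in rde-1 (limma, adjusted p = 0.029).

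Nearly all selected piRNAs were also seen in embryos. In henn-1 embryos 1056, 1054 and 1054 of them had reads, against 873, 1002 and 931 in wild type embryos. All 3 wild type embryo libraries contained 791 and none of them contained 18. The 2 piRNAs missing from henn-1 libraries 2 and 3 were 21ur-13363, with 1 read in library 1, and 21ur-9264, with 3 reads there. The median over the set was 41.7 reads in henn-1 and 4.33 in wild type embryos, while the comparison piRNAs had medians of 146 and 30 reads. The share of piRNA reads was higher by 3.12 percentage points in henn-1 embryos (4.78% ± 0.31 against 1.66% ± 0.54, SD, n = 3 each; two-sided exact permutation p = 0.1).

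In single piRNAs, edgeR's quasi-likelihood test over piRNAs and WAGO loci called 53.4% of 7739 features higher and 32.1% lower in henn-1 embryos. Of the 915 selected piRNAs that passed the filter on low counts, 852 were called higher and 3 lower, and their median log2 difference was 3.26, against 1.29 over all features and 1.83 over the comparison piRNAs, of which 2207 of 3156 were higher and 128 lower. Without the filter 32.4% of 14897 features were higher and 19% lower, with 880 of 1056 selected piRNAs higher and 7 lower. The scale of this table is uncertain because piRNAs made up most of the counted reads in henn-1 embryos (84.3% to 90.5%). With scaling on piRNAs only, an alternative chosen after seeing the data, 20.3% of features were higher and 47.6% lower, and 468 selected piRNAs were higher and 64 lower. The median of all features lay between -0.80 and 4.51 over the scalings tried. Relative to it, the median of the selected piRNAs was 1.97 above in the TMM fit and 1.91 above under scaling on piRNAs only. It was 2.15 above under scaling on WAGO loci, 1.62 above without the filter and 1.64 above without wild type library 1. A piRNA could pass the filter through its henn-1 libraries alone, which favours piRNAs high in henn-1. The call counts also rest on wild type libraries 1 and 3: without library 1 there were 712 higher and 23 lower, and without library 3 677 higher and 24 lower.

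The highest member in embryos was 21ur-5990, with 1414, 1040 and 956 reads in henn-1, against 14, 62 and 33.5 reads in wild type (log2 difference 4.76 ± 0.39 in the TMM fit, edgeR, adjusted p = 3.8e-06). 21ur-13532 had 861, 844 and 908 reads in henn-1 embryos, against 14, 10 and 4 reads in wild type. 21ur-3481 had 729, 1035 and 798 reads in henn-1 embryos, against 5, 2 and 4 reads in wild type, a log2 difference of 7.44 ± 0.62 (adjusted p = 3.8e-06). 21ur-1375, 21ur-4723 and 21ur-618 completed the 6 highest, with henn-1 means of 702, 656 and 655 reads, against wild type means of 42.3, 16.7 and 36.7 reads. The henn-1 libraries lay above the wild type libraries in each of these 6.

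The lowest adjusted p-values belonged to 21ur-14096, 21ur-14169, 21ur-14497 and 21ur-2275, with log2 differences of 5.13, 5.86, 6.32 and 6.34 and edgeR adjusted p = 3.6e-06 each. 21ur-2275 had 647, 558 and 495 reads in henn-1 embryos, against 6, 6 and 4 reads in wild type. 21ur-14497 had 298, 367 and 296 reads in henn-1 embryos, against 1, 5 and 4 reads in wild type. Their differences were between 2.95 and 9.87 over all alternatives tried for the embryo table.

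The 4 members with the highest wild type embryo means were 21ur-6501, 21ur-3270, 21ur-7014 and 21ur-13888. 21ur-6501 had 188, 109 and 120 reads in henn-1 embryos, against 18, 91 and 56 reads in wild type, the highest wild type mean of the set (log2 difference 1.16 ± 0.36, adjusted p = 0.00885), and its difference was negative under scaling on piRNAs only and without wild type library 1. 21ur-3270 had no read in any wild type gonad library but 32, 77 and 55 reads in wild type embryos, beside 792, 393 and 442 reads in henn-1 embryos. 21ur-7014 and 21ur-13888 had wild type means of 49.0 and 48.9 reads, beside henn-1 means of 496 and 371 reads. The 3 members called lower in henn-1, named after their values were seen, were 21ur-1342, 21ur-5515 and 21ur-10851. 21ur-1342 had 23, 12 and 10 reads in henn-1, against 65, 56 and 18 reads in wild type, where the groups overlapped. None of these 3 calls held under scaling to library totals, and all 3 differences were positive under scaling on WAGO loci.

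Read lengths were counted in embryos only, over 16 to 21 nt. In henn-1 embryos 77.1%, 82.6% and 80.7% of the reads of the selected piRNAs were shorter than 21 nt, against 32.9%, 27.6% and 32.4% in wild type embryos. The groups did not overlap, and the difference was 49.2 percentage points (two-sided exact permutation p = 0.1). In henn-1 embryos 20 nt was the most frequent length with 36.6% ± 1.10, followed by 19 nt with 28.3% ± 1.95 and 21 nt with 19.8% ± 2.79 (SD, n = 3). In wild type embryos 21 nt held 69% ± 2.93, 20 nt 14% ± 0.98 and 19 nt 9.59% ± 1.28.

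**Figure D4:**
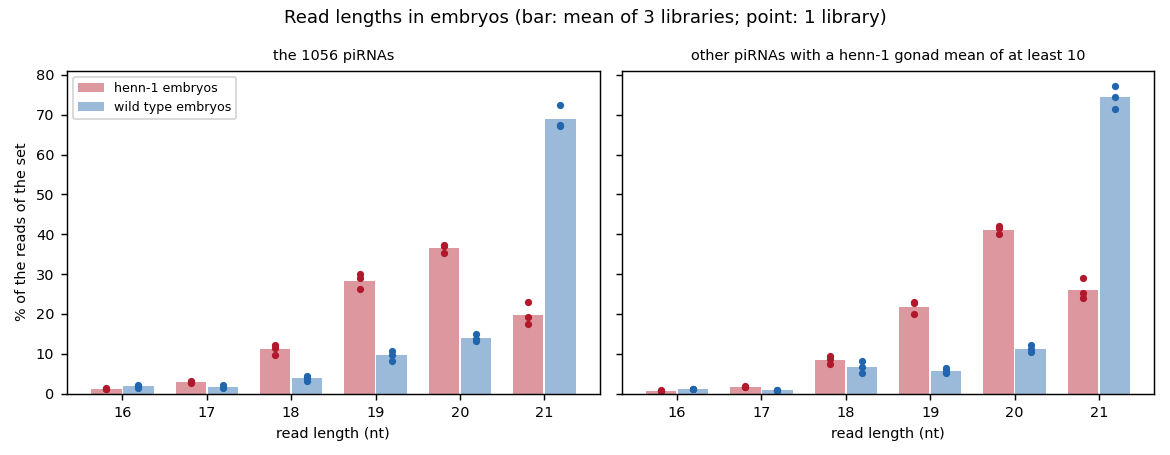
Read lengths (nt) of the 1056 selected piRNAs (left) and the 3259 comparison piRNAs (right) in henn-1 and wild type embryos, as percent of the reads of each set, with bars at the mean of 3 libraries and a point per library. In both sets the henn-1 reads peak at 20 nt (36.6% and 41.1%) and the wild type reads at 21 nt (69% and 74.4%).

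The comparison piRNAs were also shorter in henn-1 embryos, with 71%, 76.1% and 74.7% of reads below 21 nt, against 28.5%, 22.8% and 25.5% in wild type. The selected piRNAs exceeded them in 6 of 6 libraries, by 5.83 ± 0.98 percentage points (SD, n = 6; two-sided exact sign permutation p = 0.03125, the smallest that 6 libraries allow). The difference was 6.22 ± 0.31 in henn-1 and 5.44 ± 1.36 in wild type libraries (n = 3 each, where the smallest exact permutation p is 0.25). It concerned reads summed over each set. When single piRNAs with at least 10 reads in every library were given equal weight, the difference turned to -2.0 percentage points. At 19 nt the selected piRNAs had 28.3% in henn-1 and 9.59% in wild type embryos, beside 21.9% and 5.70% for the comparison piRNAs.

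Single members differed widely in length. Of the 51 selected piRNAs with at least 10 reads in each of the 6 libraries, 43 had a larger short share in every henn-1 library than in any wild type library and 1 a smaller one, where 82.6% and 2.62% of all 2293 such piRNAs did. Their median short share was 81.4% in henn-1 and 19.7% in wild type embryos. 21ur-618 had 98.1%, 98.9% and 98.7% short reads in henn-1 embryos, against 5%, 8.70% and 9.09% in wild type. 21ur-7014 had 83.6%, 86.2% and 86.5% in henn-1, against 13.8%, 5.33% and 9.30% in wild type. 21ur-1288, the 1 with a smaller share, had 6.54%, 3.83% and 9.68% in henn-1, against 15.4%, 13.8% and 23.1% in wild type.

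Some members stayed mostly at 21 nt in henn-1 embryos. 21ur-2898 had 16.8%, 24.7% and 19.6% short reads there and 21ur-5990 had 25.3%, 27.3% and 25.2%, whereas 21ur-6628 had 99.6%, 99.5% and 99.3% and all reads of 21ur-13532 were short. The most frequent length in henn-1 embryos was 20 nt for 429 members, 21 nt for 267, 19 nt for 265 and 18 nt for 85. In wild type embryos it was 21 nt for 782 of the 1038 with reads. Over the 895 members with at least 10 reads in each henn-1 library, the short share had a median of 89.1% and quartiles of 64.7% and 97.7%, beside 80.7%, 57.8% and 95.7% for 3083 comparison piRNAs.

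Short shares in henn-1 embryos were set beside the oxidation values of wild type animals. The 35 tested members with a short share below 25% had a median log2 oxidized over untreated difference of 1.13, against 2.34 for 66 members between 25% and 50%, 1.92 for 115 between 50% and 75% and 1.87 for 417 above. In rde-1 the same classes gave 1.09, 1.94, 1.92 and 2.06 over 31, 55, 102 and 379 members. The comparison piRNAs gave 1.27 in the lowest class and 1.93 to 2.26 in the others in wild type. Over all classes the rank correlation was 0.06 over 633 members in wild type and 0.12 over 567 members in rde-1, and neither is read as a relation.

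The set was located by name. All 1056 names were found among the 15363 piRNA genes of the RefSeq annotation of assembly WBcel235, and 1055 lay on chromosome IV, as did 14714 of all. The exception, 21ur-13866, had 14.6, 12.5 and 16.8 in henn-1 gonads, against 2.23, 0.672 and 0 in wild type gonads. In the order of the annotation 243 selected piRNAs (23%) stood next to another selected one, with 128 adjacent pairs and runs of up to 4. Of the comparison piRNAs 14.3% stood next to a selected one, as did 13.2% of all piRNAs, with no test. Because 8 members had the same values as another member in all tables used, reads of identical or near-identical piRNAs may have been split by the authors' counting. These 8 were 21ur-11689, 21ur-3542, 21ur-3990, 21ur-558, 21ur-8649, 21ur-8935, 21ur-901 and 21ur-9603.

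Levels were also compared between gonads and embryos. Over the 1056, the rank correlation of henn-1 gonad means was 0.47 with henn-1 embryo reads and 0.22 with wild type embryo reads, where the counts were lower and the choice of the set had cut the gonad means at 10. Members between 20 and 50 in henn-1 gonads had medians of 71.3 reads in henn-1 and 5 in wild type embryos, beside 58.3 and 15.0 reads for comparison piRNAs of the same class. Their median in untreated wild type animals was 11, beside 31.4 for the comparison piRNAs. Between 10 and 20 the henn-1 embryo medians were 28.7 reads for the selected and 26.7 for the comparison piRNAs, and between 50 and 200 they were 176 and 178 reads. The wild type embryo medians were 3.67 against 11 reads between 10 and 20, and 7.33 against 31 reads between 50 and 200. In each of the 3 classes the selected piRNAs had the lower median in wild type embryos, while in henn-1 embryos the order of the medians differed between classes.

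The mRNAs of the piRNA pathway were measured in gonads of the same genotypes. henn-1 itself had 234, 249 and 229 normalized signal in henn-1 gonads, against 2192, 2240 and 2298 in wild type gonads, a log2 difference of -3.24 ± 0.05 (SE; limma, adjusted p = 2.4e-10). Of the 20 listed genes 17 could be tested, and beside henn-1 only erh-2, a subunit of the complex that processes piRNA precursors, passed, with 1062 ± 54.7 in henn-1 and 941 ± 23.4 in wild type gonads (log2 difference 0.17 ± 0.05, adjusted p = 0.037), where 7.44% of 8750 mRNAs were called higher and 12.4% lower. erh-2 lost the call in 7 of its alternatives. The Argonaute prg-1 had 9448 ± 582 in henn-1 and 10550 ± 600 in wild type gonads (SD, n = 3 each; log2 difference -0.16 ± 0.06, adjusted p = 0.068). The nuclease parn-1 had 1691 ± 68.3 in henn-1 and 1554 ± 73.1 in wild type gonads (adjusted p = 0.10), and prde-1 and snpc-4, which are needed for piRNA transcription, had log2 differences of 0.00 and -0.12 (adjusted p = 0.997 and 0.077).

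Markers of other cells in these gonads were also counted. All 4 muscle markers (myo-3, unc-54, unc-27 and mup-2) were called higher in henn-1 gonads, by 0.88 to 1.39 on the log2 scale, with a summed signal of 750 to 1128 in henn-1 and 388 to 471 in wild type libraries. Among 4 germline markers glp-1 and pgl-1 were called lower, by -0.19 each, and among 4 oocyte markers rme-2 was called lower, by -0.25. Neither of the 2 tested sperm markers nor of the 2 tested intestine markers passed the test, and the sums of the 5 sperm markers were 620 to 690 in henn-1 and 594 to 620 in wild type gonads. The 4 intestine markers summed to 79.1 to 246 in henn-1 and 50.2 to 271 in wild type gonads, and elt-2, which defines the intestine, was at 1.05 or less in each library. The part of these differences in the piRNA values of the gonads was not tested.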

How the data were processed

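Small RNA libraries of gonads, whole animals and embryos and mRNA libraries of gonads were used, 30 of the 60 in the series. The tables of the other sets list no piRNA. The authors deposited the gonad and whole animal tables as a normalized signal per feature, with DESeq2 counts in the table names, with wild type and rde-1 animals in tables scaled apart. Per the submitters' processing notes, the mRNA tools included RSEM 1.3.0, STAR 2.5.0a, Trimmomatic 0.35 and DESeq2 1.18.1, and DESeq2 1.18.1 is also named for these small RNAs. No source used here gives the small RNA aligner or a genome build. The embryo tables hold the deposited expected count of each feature at each length, some as fractions, and were rounded after summing over lengths.

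All (100%) small RNA signals of gonads and whole animals were whole multiples of 1 step per library (tolerance 0.1), which gave the reads. Detection means at least 1 such read. Signals plus a pseudocount of 1 were put on the log2 scale and fitted with limma 3.58.1 (R 4.3.3, trend), for features whose mean reached 10, which understates changes of low features. Embryo counts went into edgeR 4.0.16 (quasi-likelihood test, TMM scaling), with piRNAs and WAGO loci (22G-RNA loci) together. P-values were adjusted over all features by Benjamini-Hochberg, and 0.05 was the threshold. As an alternative, edgeR on the recovered reads called 7756 features in gonads, 9097 in wild type and 6177 in rde-1 animals. DESeq2 1.42.0 was an alternative in embryos. Summed values used two-sided exact permutation tests over libraries. The 3 reads that a count of 0 allows cover counting error only. The edgeR fit of embryos and the limma fit of wild type oxidation were tested on simulated data. Only a small part of the features was changed there, so the simulations do not bear on the uncertain scale of the embryo table. Every simulated feature was given the same setting for its spread among libraries. The simulations thus do not bear on the wider spread of single piRNAs either.

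The piRNAs, gene lists and tests were chosen with earlier results of these data known. Named piRNAs were the 6 highest means in henn-1 gonads, in untreated wild type animals and in henn-1 embryos, the 4 highest in wild type embryos, the 4 lowest adjusted p of the wild type oxidation and embryo fits, and 2 on each side of each limit. Others named were chosen after their values were seen. Of the 20 pathway genes, 18 matched the mRNA table. Replicate numbers were checked for pairing, and same-numbered deviations did not all correlate above 0.1 in any table. In wild type animals each untreated library still correlated best with the oxidized library of its own number, though weakly (0.059, 0.027 and 0.051). Whether the numbers pair the samples is thus not settled, and the fits reported treat the libraries as unpaired. No sequences were used.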

Additional observations from a re-analysis of the deposited data

How the results depend on the processing

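With a wild type limit of 1 the rule finds 590 piRNAs, and with a henn-1 limit of 20 it finds 383. Over all gonad small RNA features 9485 were called without a filter and 8870 with a mean of at least 1, against 5477 in the fit reported. The counts of selected piRNAs called lower moved most. In wild type animals there were 26 without a filter, 26 with a mean of at least 1, 2 with edgeR on recovered reads and 0 to 16 with 1 library left out (limma), with 1 and 4 at an unadjusted p under 0.05 in the fits that gave 0. In rde-1 animals there were 9 without a filter, 8 with a mean of at least 1 and 0 to 4 with 1 library left out (limma), with 1, 1 and 4 at an unadjusted p under 0.05 in the fits that gave 0. In embryos there were 8 with DESeq2, 7 without a filter, 64 with scaling on piRNAs only (468 higher), 2 to 24 with 1 library left out and, with edgeR, 0 under scaling to library totals and 0 under scaling on WAGO loci, with 1 and 0 at an unadjusted p under 0.05. Of the pathway mRNAs 1 was called without a filter, 4 with TMM factors and 1 to 6 with 1 library left out, against 2 reported. The length difference between selected and comparison piRNAs turned to -2.0 percentage points as a mean over single piRNAs, and was 5.60 to 6.10 with 1 library left out, where the exact permutation p cannot be below 0.0625. Relative to all other piRNAs the summed oxidation difference turned to -1.43 in wild type and -1.50 in rde-1. The cause was not tested for any of these.

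Some single log2 differences changed sign. Under scaling of embryos on piRNAs only they were -0.089 for 21ur-4787, -0.10 for 21ur-6457, -0.44 for 21ur-5939, -0.24 for 21ur-7704, -1.03 for 21ur-6501, -1.16 for 21ur-4420, -0.37 for 21ur-174, -0.067 for 21ur-1288, -1.28 for 21ur-9646 and -0.38 for 21ur-10036. Under scaling on WAGO loci they were 0.59 for 21ur-1342, 2.49 for 21ur-10851 and 1.59 for 21ur-5515. With 1 embryo library left out, 21ur-6501 ranged over -0.34 to 1.24 and 21ur-9646 over -0.31 to 0.86. For wild type oxidation, 21ur-1375 had 0.40 with a pseudocount of 5, 1.85 with edgeR and -1.54 to 1.77 with 1 library left out. 21ur-2275 had 0.41 with a pseudocount of 5, 0.042 with TMM factors, 1.64 with edgeR and -0.38 to 1.64 with 1 library left out, 21ur-14169 had -0.48 to 2.11 and 21ur-4787 -0.53 to 0.027. For rde-1 oxidation, 21ur-4787 had -0.014 with TMM factors, -0.17 with library totals and -0.31 to 0.37 with 1 library left out, and 21ur-4420 had 0.29 with edgeR and -0.89 to 0.42. 21ur-3481 had -0.44 to 1.59 and 21ur-618 -1.15 to 0.30. None of these oxidation differences had passed the test.

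With the replicate number as a block, 5429 gonad features were called, and of the selected piRNAs 423 were higher and 6 lower with oxidation in wild type, 334 and 3 in rde-1, and 838 and 2 in henn-1 embryos. Of the pathway mRNAs 2 were called. Whether the numbers pair the samples is not settled.

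Levels under 3 reads per library limit what can be said of wild type gonads, and 3 libraries per group cannot give an exact permutation p below 0.1.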
